A study of Mus musculus with 12 samples.

Results

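Whether the transcript response of mouse embryonic fibroblasts to rotenone depended on the replicate number of the cells was read from 6 same-numbered pairs of arrays. In each pair the vehicle array was subtracted from the rotenone array of the same genotype and number, probe set by probe set, on the log2 scale. The 2 differences of the pairs numbered 3 (1 wild type, 1 knockout) were compared with the 4 differences of the pairs numbered 1 and 2. All 12 arrays of the series entered, and all 22626 probe sets of the 22690 on the array that are not array controls were compared. A gene was represented by its brightest probe set, which gave 12393 genes. Number 3 was set against the others because earlier results on the same values had shown its levels to stand apart in every group.

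The cells were primary fibroblasts at passage 4, from wild-type mice or from HtrA2 knockouts. HtrA2, also called Omi, is a protease found between the mitochondrial membranes. They received vehicle or 1 µM rotenone for 4 h, with 3 arrays in each of the 4 combinations. The labels give no meaning to a replicate number and name no separate embryo or culture. Every p-value thus rests on the spread among these arrays alone, and that spread may be technical. The number of arrays limits the precision, since 2 pairs stand against 4. On 3 wild-type rotenone arrays the genotype field names the knockout, against the title. They were grouped by title. The level of Htra2 ran from 8.83 to 9.32 on the 6 wild-type arrays and from 7.57 to 7.87 on the 6 knockout arrays, so the groups did not overlap. Array medians lay between 7.52 and 7.58. All 15 fibroblast markers stood above the 40th percentile of the array.

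Rotenone blocks complex I of the mitochondrial respiratory chain and also binds tubulin. Loss of respiration can engage the integrated stress response, in which phosphorylation of the initiation factor eIF2 lowers general translation and favours that of the transcription factor ATF4. ATF4 and its partner CHOP (Ddit3) then switch on genes of amino acid supply, of feedback on eIF2 and of cell death. Free tubulin subunits shorten the life of tubulin transcripts, so agents that release tubulin from microtubules lower these transcripts. Less respiration also leaves more oxygen in the cell and more demand on glycolysis, and folliculin and the TFE transcription factors link nutrient stress to the lysosome.

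Rotenone changed 601 genes (4.85% of all genes) in the pairs numbered 1 and 2, 357 upwards (2.88%) and 244 downwards (1.97%), at a limma adjusted p under 0.05. In the 2 pairs numbered 3 it changed 45 genes, 20 upwards (0.161%) and 25 downwards (0.202%). Fewer pairs make fewer calls, so these counts do not show a difference. The difference itself passed the test for 12 genes: in 11 the value was lower in number 3 (0.0888% of genes) and in 1 it was higher (0.00807%). Over probe sets the same test called 17 (0.0751%), 3 higher (0.0133%) and 14 lower (0.0619%). An unadjusted p under 0.05 was reached by 1689 of the 22626 probe sets. A contrast between number 2 and number 1 called 0 probe sets with limma, and 1693 reached an unadjusted p under 0.05. It came from a fit with 1 mean for each number and sets 2 pairs against 2, so the 0 and the 17 cannot be compared directly. The lowest adjusted p there was 0.072. When the arrays were not paired by number, the difference between number 3 and the rest called 0 probe sets, with 880 under an unadjusted p of 0.05.

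The number of calls depended most on the pairs numbered 3 themselves. Without the wild-type pair numbered 3, 6 probe sets were called, all lower. Without the knockout pair numbered 3, 352 were called, 137 higher and 215 lower. In each of these fits the remaining pair is assumed to vary like the others. Without the wild-type pair numbered 2, 8 were called, and without the knockout pair numbered 2, 10. Against number 1 alone the count was 3, and against number 2 alone it was 18. The wild-type pair numbered 3 had the widest differences of the 6 pairs and the knockout pair numbered 3 the narrowest. The standard deviation over probe sets was 0.261 in the former and 0.178 in the latter, against 0.199 to 0.226 in the other 4 pairs. In the former, 6.4% of probe sets moved by more than 0.5, and in the latter 0.986%.

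**Figure D1:**
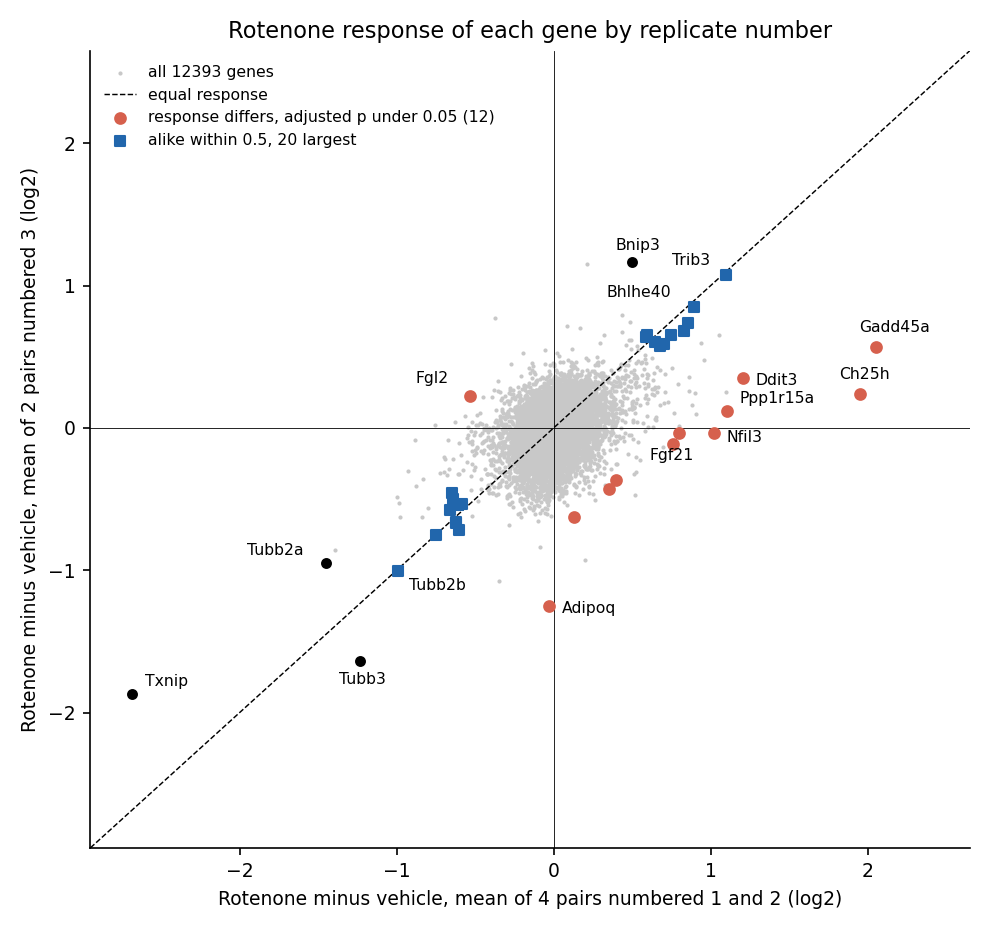
Mean rotenone minus vehicle difference (log2) of each of 12393 genes in the 4 pairs numbered 1 and 2 (horizontal) and the 2 pairs numbered 3 (vertical), with the line of equal response dashed. Red points are the 12 genes whose response differed, blue squares the 20 largest responses alike within 0.5, and black points other genes discussed in the text. Gadd45a and Ch25h lie near 2 on the horizontal axis and at 0.57 and 0.24 on the vertical axis.

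Most genes that passed in numbers 1 and 2 moved the same way in number 3, by a smaller amount. Of the 357 genes that rose there, 229 (64.2%) were higher with rotenone in both pairs numbered 3, and 35 (9.80%) were lower in both. Over all genes with an estimate above 0 in numbers 1 and 2, these shares were 41.0% and 14.8%. The median of the 357 was 0.41 in numbers 1 and 2 and 0.17 in number 3. Of the 244 genes that fell, 151 (61.9%) were lower in both pairs numbered 3 and 14 (5.74%) were higher in both. Over all genes with an estimate below 0 in numbers 1 and 2, these shares were 34.5% and 22.2%. The median fall of the 244 was 0.38 in numbers 1 and 2 and 0.15 in number 3. The 357 and the 244 genes were chosen in numbers 1 and 2, which widens their values there. Of the 20 genes called higher in number 3, 17 were also called in numbers 1 and 2, as were 17 of the 25 called lower.

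To set this choice apart, the 100 genes with the largest difference in 1 number were read in the 2 numbers that had not chosen them. Genes chosen in number 1 had a median of 0.68 in number 2 and 0.31 in number 3, each in the direction of choice. Both pairs moved that way for 98 of them in number 2 and for 74 in number 3. Genes chosen in number 2 had a median of 0.59 in number 1 and 0.29 in number 3, with 98 and 76 moving that way in both pairs. The knockout pairs alone gave the same order. For genes chosen in number 1 the knockout medians were 0.65 in number 2 and 0.32 in number 3, and for genes chosen in number 2 they were 0.59 and 0.28. Genes chosen in number 3 had a median of 0.32 in number 1 and 0.21 in number 2, with 85 and 65 of them moving that way in both pairs. Their median in number 3 itself was 0.79 in the wild-type pair and 0.47 in the knockout pair.

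**Figure D2:**
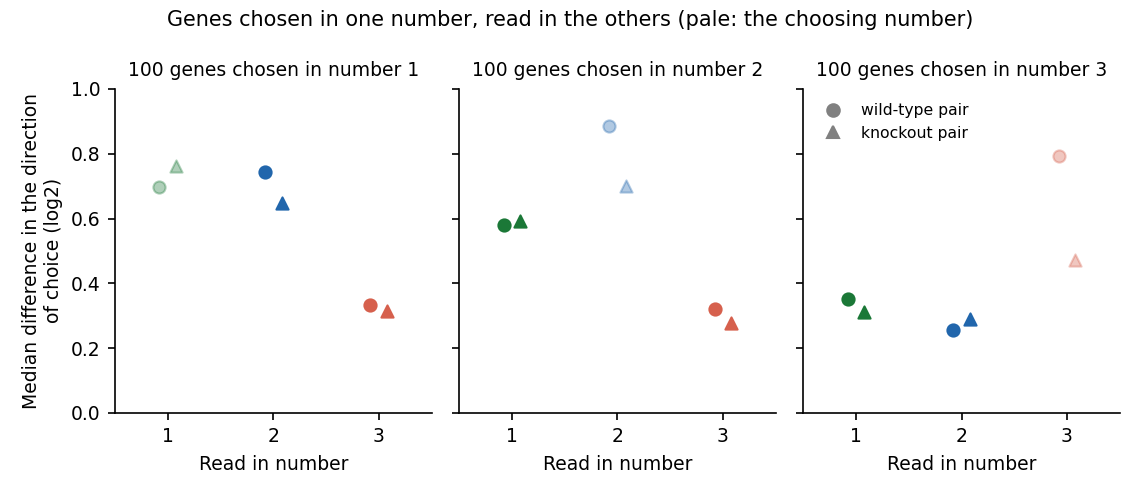
Median rotenone minus vehicle difference (log2, in the direction of choice) of the 100 genes with the largest difference in number 1, 2 or 3, read in each number. Circles are wild-type pairs, triangles knockout pairs, and pale symbols the number used for the choice. Genes chosen in number 1 or 2 read at 0.58 to 0.74 in the other of these numbers and at 0.28 to 0.33 in number 3.

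Across 22626 probe sets the differences of the wild-type and knockout pairs correlated with r = 0.477 in number 1, 0.431 in number 2 and 0.165 in number 3. These values are descriptions across probe sets, which share the labelling and normalization of their array and are not independent replicates. The value for number 3 lay within the range, 0.046 to 0.458, that its 2 pairs gave with the pairs of the other numbers. The knockout pair numbered 3 correlated with the wild-type pair numbered 1 at 0.458 and with the wild-type pair numbered 2 at 0.046. What follows on single genes is therefore given pair by pair.

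The largest reductions of the response in number 3 were those of Gadd45a and Ch25h. Gadd45a encodes a stress-induced protein of growth arrest and DNA repair. Its level was 7.67, 7.18 and 6.54 in the wild-type vehicle cells numbered 1, 2 and 3, and 9.65, 9.55 and 6.95 with rotenone. In the knockout it was 7.27, 7.26 and 6.38 with vehicle and 9.31, 9.09 and 7.12 with rotenone. The 4 differences of numbers 1 and 2 ran from 1.83 to 2.37 and those of number 3 were 0.41 and 0.73, so they did not overlap. Gadd45a rose 4.14-fold in numbers 1 and 2 (2.05 on the log2 scale, SE 0.09). In number 3 it was 1.49-fold higher (0.57, SE 0.13, adjusted p = 0.0612). The difference was -1.48 (SE 0.16, 95% interval -1.81 to -1.15, limma adjusted p = 0.000508), -1.76 within the wild type and -1.20 within the knockout. Number 3 also started lower, with a vehicle mean of 6.46 against 7.35.

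Ch25h encodes cholesterol 25-hydroxylase, which makes 25-hydroxycholesterol. Its wild-type levels were 8.37, 7.99 and 8.83 with vehicle and 10.01, 10.67 and 9.05 with rotenone. The knockout levels were 9.04, 8.91 and 8.81 with vehicle and 10.75, 10.67 and 9.07 with rotenone. The treated arrays numbered 1 and 2 were thus all above the treated arrays numbered 3, while the vehicle level of number 3 lay within the range of the others. The rise was 1.64 and 2.68 in the wild-type pairs numbered 1 and 2 and 1.72 and 1.76 in the knockout pairs, against 0.22 and 0.26 in number 3. Ch25h rose 3.86-fold in numbers 1 and 2 and was 1.18-fold higher in number 3 (0.24, SE 0.18, adjusted p = 0.632). The difference was -1.71 (SE 0.22, 95% interval -2.16 to -1.26, adjusted p = 0.00300).

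Gadd45a and Ch25h were the 2 of the 12 genes that stayed below an adjusted p of 0.05 whichever single pair was left out, with values up to 0.0102 and 0.0223. Adipoq and Nfil3 missed it without the wild-type pair numbered 3 (up to 0.111 and 0.103), but not without any other pair. Without that pair, 10 of the 12 calls were lost, with adjusted p from 0.0613 to 0.536. Of these 12 calls, 8 were lost without the wild-type pair numbered 2 (0.0675 to 0.196), 7 without the knockout pair numbered 2 (0.0585 to 0.149), 5 without the wild-type pair numbered 1 (0.0672 to 0.101), 5 without the knockout pair numbered 1 (0.0738 to 0.103) and 1, that of Ppp1r15a, without the knockout pair numbered 3 (0.0692). No direction changed. For all 12 genes both pairs numbered 3 lay outside the range of the other 4, which held for 8.35% of all genes downwards and 7.07% upwards. The 12 were called on these same differences, so this separation follows largely from the choice and adds no support.

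**Figure D3:**
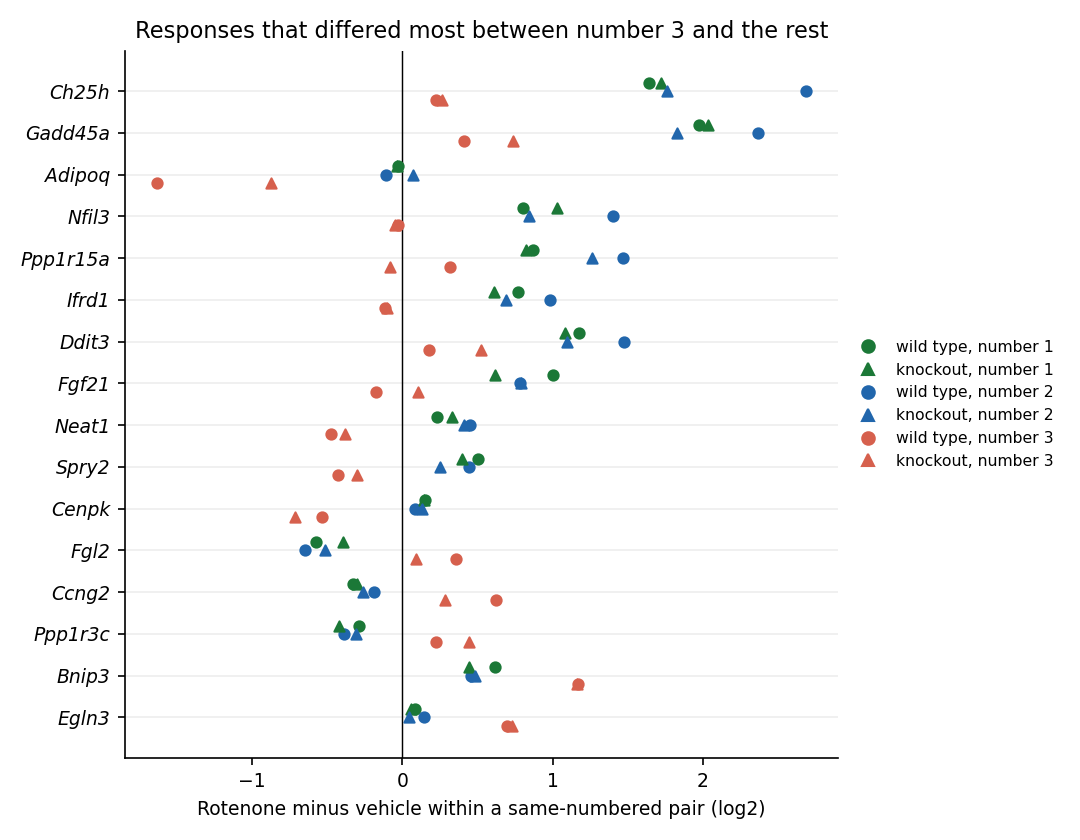
Rotenone minus vehicle difference (log2) in each of the 6 same-numbered pairs for the 12 genes whose response differed and for Ccng2, Ppp1r3c, Bnip3 and Egln3, which did not pass. Circles are wild type, triangles knockout, and colours the replicate number. Both red symbols of every gene lie outside the range of the green and blue ones, but the genes were chosen on these same differences.

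The integrated stress response held genes with a smaller response in number 3 and genes with a like one. Of 33 measured members, 23 rose in the mean of all 6 pairs and 0 fell, against 3.32% of all genes rising and 2.74% falling. In numbers 1 and 2, 21 rose. In number 3, 4 did (Trib3, Chac1, Stc2 and Vldlr). The difference passed for 4 of the 33, all lower in number 3 (Ddit3, Ppp1r15a, Fgf21 and Nfil3). In 27 of the 33 the difference was below 0, with a median of -0.17, against 6047 of 12393 and a median of 0.00 over all genes. The median response of the list was 0.32, 0.42 and 0.21 in numbers 1, 2 and 3. Its vehicle level was 0.26 lower (median) in number 3 than in the others. Whether that lower level bears on the response was not tested.

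Ddit3 encodes CHOP, the factor that carries the stress response towards cell death. Its wild-type levels were 10.53, 10.48 and 9.22 with vehicle and 11.70, 11.95 and 9.40 with rotenone. The knockout levels were 10.50, 10.49 and 8.94 with vehicle and 11.59, 11.59 and 9.47 with rotenone. Even after rotenone the cells numbered 3 lay below every vehicle array of the other numbers. The rise was 1.17, 1.47, 1.08 and 1.10 in the 4 pairs numbered 1 and 2 and 0.17 and 0.52 in number 3. The difference was -0.86 (SE 0.15, adjusted p = 0.0343).

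Ppp1r15a encodes GADD34, the phosphatase subunit that reverses eIF2 phosphorylation. Its rises were 0.87 and 1.47 in the wild-type and 0.82 and 1.26 in the knockout pairs numbered 1 and 2, and 0.32 and -0.08 in number 3 (difference -0.99, SE 0.18, adjusted p = 0.0391). Nfil3 encodes a basic leucine zipper repressor of circadian and immune genes. It rose by 0.80, 1.40, 1.03 and 0.85 in numbers 1 and 2, and its differences were -0.03 and -0.05 in number 3 (difference -1.06, SE 0.16, adjusted p = 0.0109). Unlike Ddit3, Nfil3 started from about the same level: its 6 vehicle arrays ran from 8.65 to 9.09 and those numbered 3 stood at 9.09 and 8.92. Fgf21 encodes a secreted metabolic hormone. Its differences were 1.00, 0.78, 0.61 and 0.79 in numbers 1 and 2 and -0.18 and 0.10 in number 3 (difference -0.84, SE 0.14, adjusted p = 0.0341). The calls of Ddit3 and Ppp1r15a were also lost when the arrays were quantile-normalized.

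Trib3, which encodes a pseudokinase induced by ATF4 and CHOP, responded alike in all 6 pairs by its brightest probe set. It went from 9.78 to 10.85, from 9.58 to 10.77 and from 8.25 to 9.36 in the wild-type pairs numbered 1, 2 and 3. In the knockout it went from 9.55 to 10.60, from 9.44 to 10.51 and from 7.90 to 8.94. The 6 rises thus lay between 1.04 and 1.19, although the vehicle mean of number 3 was 8.08 against 9.59 in the others. Trib3 rose 2.13-fold (1.09, SE 0.06, adjusted p = 3.00e-09). Its response differed between number 3 and the rest by -0.02, with a 95% interval from -0.29 to 0.25. A dimmer probe set of Trib3 gave 1.165 in numbers 1 and 2 and 0.92 in number 3 (difference -0.25, SE 0.14, limma adjusted p = 0.732). Both its pairs numbered 3 (0.98 and 0.86) lay below the others (1.05 to 1.35), so the closeness of the 6 rises held for the brightest probe set.

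Other members alike within 0.5, meaning that the whole 95% interval of the difference lay between -0.5 and 0.5, included Stc2, a secreted glycoprotein, Gpt2, a mitochondrial alanine transaminase, Vldlr, a lipoprotein receptor, Asns, asparagine synthetase, and Mthfd2, a mitochondrial folate enzyme. In all, 13 of the 23 risen members met this bound, near the 54.6% of all genes with a called mean response that did. A dimmer probe set of Gpt2 gave 0.57 in numbers 1 and 2 and 0.19 in number 3 (difference -0.38, SE 0.16, limma adjusted p = 0.598). Both its pairs numbered 3 (0.31 and 0.07) lay below the others (0.33 to 0.89), while another probe set differed by -0.13. The likeness of Gpt2 thus depended on the probe set. Stc2 rose by 0.72 (SE 0.07), with 0.50 to 0.98 in numbers 1 and 2 and 0.57 and 0.73 in number 3. Its other probe set rose by 0.25 (limma adjusted p = 0.0196). Vldlr rose by 0.62 (SE 0.07), with 0.82 and 0.49 in number 3. Among its dimmer probe sets the mean response was 0.63, 0.17 and 0.05 (limma adjusted p = 0.000734, 0.118 and 0.738). Asns rose by 0.25 (SE 0.06, adjusted p = 0.0208), and its mean rise missed the threshold at 0.0506 when arrays were not paired. Among the other members that rose, some neither passed nor met the bound. Chac1, which degrades glutathione, rose by 1.05 in numbers 1 and 2 and by 0.65 in number 3, with a difference of -0.40 (95% interval -0.71 to -0.09, adjusted p = 0.511). Atf3, a stress-induced transcription factor, rose by 0.90 in numbers 1 and 2 and was 0.24 higher in number 3 (difference -0.66, interval -1.02 to -0.29, adjusted p = 0.315). Atf4 itself rose by 0.50 in numbers 1 and 2 and was 0.19 higher in number 3 (difference -0.32, interval -0.61 to -0.02, adjusted p = 0.615).

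Promoter sequence was examined for the C/EBP-ATF response element, TGATGCAA on either strand, which ATF4 and its partners can bind. RefSeq promoters (GRCm38.p6, 250 bases before to 50 after each gene start) held it in 294 of 32851 cases (0.895%). The following lines show it in capitals for genes of the stress response, chosen because their responses differ: Fgf21 had a smaller response in number 3, Chac1 and Atf3 neither passed nor met the bound, and Vldlr was alike. All 4 carry it in the reverse orientation relative to the gene, at different distances from the start.
Fgf21, chr7:45615602-45615649, minus strand: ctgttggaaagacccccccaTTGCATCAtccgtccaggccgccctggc
Chac1, chr2:119351029-119351076, plus strand: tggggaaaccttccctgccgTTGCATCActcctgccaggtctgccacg
Atf3, chr1:191183416-191183463, minus strand: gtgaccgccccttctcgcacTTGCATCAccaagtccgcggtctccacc
Vldlr, chr19:27216800-27216847, plus strand: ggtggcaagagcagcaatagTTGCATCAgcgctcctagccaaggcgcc
The motif begins 139 bases before the start in Fgf21, 193 in Chac1, 110 in Atf3 and 200 in Vldlr. Among the 11 genes with a lower response in number 3, 10 had a promoter in the table and 1 held the motif (Fgf21). Among the 10 largest rises alike within 0.5, 7 had a promoter and 1 held it (Vldlr). The motif was thus present on both sides.

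The cyclic AMP response element TGACGTCA, a palindrome bound by CREB and ATF family proteins, was in 588 promoters (1.79%). Of the 10 promoters of genes with a lower response in number 3, 2 held it (Ch25h and Ppp1r15a), and of the 7 of the alike rises, 1 did (Flcn). The 3 windows are shown for the same comparison, with the element in capitals.
Ch25h, chr19:34475182-34475229, minus strand: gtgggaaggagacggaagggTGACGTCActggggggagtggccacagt
Ppp1r15a, chr7:45526269-45526300, minus strand: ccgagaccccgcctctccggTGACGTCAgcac
Flcn, chr11:59810061-59810108, minus strand: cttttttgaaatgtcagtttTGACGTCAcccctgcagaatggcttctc
The element begins 61, 12 and 49 bases before the start. These are matches of letters, not tested sites.

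Immediate early genes, which encode transcription factors and feedback proteins switched on within minutes of a stimulus, had a difference below 0 in 29 of 36 measured members. Of these 36, 12 rose and 4 fell in the mean of all pairs (3.32% and 2.74% of all genes). In numbers 1 and 2, 13 rose and 4 fell, and in number 3, 0 rose and 3 fell. No member passed the test of the difference with limma, and 18 of the 36 reached an unadjusted p under 0.05, as did 1014 of all 12393 genes. In 16 members both pairs numbered 3 lay below all others and in 2 above (8.35% and 7.07% of all genes). The median response was 0.11, 0.25 and -0.04 in numbers 1, 2 and 3. Egr2, a zinc-finger factor, went from vehicle levels between 8.74 and 8.91 to between 9.59 and 9.88 in numbers 1 and 2, and from 7.83 to 8.22 and from 7.33 to 7.27 in number 3 (difference -0.72, interval -1.02 to -0.41, adjusted p = 0.0853). Myc differed by -0.73 (adjusted p = 0.199), and Gem, a small GTPase, by -0.48 (adjusted p = 0.401).

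By contrast, the falls of Jun and Klf2 were alike. Jun, a subunit of AP-1, fell by 0.36 to 0.75 in numbers 1 and 2 and by 0.63 and 0.81 in number 3 (mean -0.64, SE 0.07; difference -0.12, interval -0.42 to 0.18). Klf2, a Kruppel-like factor, fell in all 6 pairs by 0.45 to 0.78, by 0.76 and 0.57 in number 3 (mean -0.64, SE 0.07; difference -0.04, interval -0.35 to 0.26). The orphan nuclear receptor Nr4a1 rose by 0.48 in the mean of all pairs, and its difference was -0.00.

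The called genes Ifrd1, Neat1 and Spry2, outside these lists, rose in numbers 1 and 2 and stood below vehicle in number 3. Ifrd1, an interferon-related regulator, rose by 0.77, 0.98, 0.61 and 0.69, and its differences in number 3 were -0.12 and -0.10 (difference -0.87, SE 0.14, adjusted p = 0.0159). Neat1, the long noncoding RNA of nuclear paraspeckles, gave 0.23, 0.45, 0.33 and 0.41 against -0.47 and -0.38 (-0.78, SE 0.13, adjusted p = 0.0307). Spry2, an inhibitor of growth factor signalling, gave 0.50, 0.45, 0.40 and 0.25 against -0.43 and -0.30 (-0.77, SE 0.13, adjusted p = 0.0343). Spry2 has a second probe set, dimmer than the first, which differed by -0.13 (adjusted p = 0.905), and the mean over its probe sets was not called. In number 3 neither Neat1 (-0.43, adjusted p = 0.102) nor Spry2 (-0.37, adjusted p = 0.162) passed on its own. The host RNA of small nucleolar RNAs Snhg1 has 5 probe sets, of which 2 that are not its brightest were called. They were named after their values were seen, and differed by -1.13 and -1.23 (adjusted p = 0.00729 and 0.0146). The brightest differed by -0.99 (adjusted p = 0.0672) and the 2 dimmest by -0.21 and -0.36.

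Other lists held single members with a wide gap. Over all genes 3.32% rose and 2.74% fell in the mean of all pairs. Of 24 genes of p53 and DNA damage, 4 rose and 1 fell in that mean, and Gadd45a alone passed the test of the difference. Pmaip1, which encodes the cell death protein NOXA, rose by 0.79 in numbers 1 and 2 and was 0.31 higher in number 3 (difference -0.48, interval -0.81 to -0.15, adjusted p = 0.434). Cdkn1a, the cell cycle inhibitor p21, gave -0.04 and -0.26 (difference -0.23, interval -0.53 to 0.07). Of 17 circadian genes, 5 rose and Nfil3 was the 1 that passed in the difference. Noct, a clock-controlled gene that encodes nocturnin, rose by 0.85, 1.57, 0.94 and 1.02 in numbers 1 and 2, and its differences in number 3 were 0.33 and 0.18 (difference -0.84, interval -1.21 to -0.48, adjusted p = 0.0891). Of 31 genes of chemokines, cytokines and NF-kB feedback, 4 rose, 1 fell and 0 differed with limma (7 with an unadjusted p under 0.05). That unadjusted p was reached by 1014 of all 12393 genes. Lif, a cytokine of the interleukin 6 family, rose by 0.91 in numbers 1 and 2 and was 0.10 higher in number 3 (difference -0.81, interval -1.28 to -0.34, adjusted p = 0.338). Il6 itself gave 0.35, 0.49, 0.01 and 0.15 against -0.44 and -0.49 in number 3 (difference -0.71, interval -1.02 to -0.40, adjusted p = 0.10). For Noct, Lif and Il6 both pairs numbered 3 lay below all others, as for 8.35% of all genes.

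Number 3 also showed falls that the others did not. Adipoq, which encodes the adipocyte hormone adiponectin, went from 7.01 to 5.38 in the wild-type and from 6.2 to 5.33 in the knockout cells numbered 3. In numbers 1 and 2 it stood between 4.61 and 5.04 with vehicle and between 4.62 and 4.92 with rotenone. It thus fell 2.39-fold in number 3 (-1.25, SE 0.14, adjusted p = 0.000146) and differed by -0.03 in the others (adjusted p = 0.944; difference of the 2 responses -1.23, SE 0.17, adjusted p = 0.00729). Its probe set lay at the 11.7th percentile of mean level. The summed linear level of 7 measured adipocyte markers was 1307 to 1585 on the 4 arrays numbered 3 and 762 to 886 on the other 8, and 2 of the 7 stood above the 40th percentile. Fabp4, another of them, differed by -0.55 (adjusted p = 0.434). Car3, a carbonic anhydrase abundant in fat and muscle, was called through a dimmer probe set and named after its value was seen. That probe set stood at 7.56 and 7.37 in the vehicle cells numbered 3 and at 5.32 to 5.62 in the others, and its response differed by -1.05 (adjusted p = 0.0109), against -0.26 (adjusted p = 0.736) for its brightest probe set. The part of other cell types in these results was not tested, and in bulk RNA fewer cells of a type and less RNA per cell cannot be told apart. Other marker sums moved with number 3 too. Leukocyte markers were higher on its 4 arrays, 2287 to 2494 against 1519 to 1811 over 14 genes, of which 5 stood above the 40th percentile. Epithelial markers were 1888 to 2401 against 1414 to 1652 (10 genes, 5 above that percentile), and markers of cartilage and bone 1273 to 1348 against 997 to 1156 (8 genes, 4 above it). The sum of fibroblast markers was 78660 and 81830 in the vehicle cells numbered 3 and 94390 to 99320 in the other vehicle cells. Endothelial, neural and muscle sums overlapped between number 3 and the rest.

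Cenpk, a kinetochore subunit, fell in number 3 by 0.54 and 0.71 and differed by 0.08 to 0.15 in the other 4 pairs (difference -0.75, SE 0.13, adjusted p = 0.0341). Its vehicle level was 8.15 in number 3 and 6.75 in the others, and the median vehicle level of 32 genes of G2 and M phase was 1.14 higher in number 3. Those genes did not share the pattern: 8 of the 32 fell in the mean of all pairs, 7 fell in numbers 1 and 2, and with limma 0 passed in number 3 and 0 in the test of the difference, where 8 each reached an unadjusted p under 0.05. Over all genes 2.74% fell in that mean and 1.97% in numbers 1 and 2. That unadjusted p was reached by 1558 of all 12393 genes in number 3 and by 1014 in the difference.

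Fgl2, which encodes a fibrinogen-like protein, was the 1 gene called in the other direction. It stood at 5.20, 5.22 and 4.50 in wild-type vehicle cells and at 4.63, 4.58 and 4.86 with rotenone, and at 5.06, 5.20 and 4.55 in knockout vehicle cells and 4.67, 4.68 and 4.64 with rotenone. It fell by 0.53 in numbers 1 and 2 and was 0.23 higher in number 3 (adjusted p = 0.452), a difference of 0.76 (SE 0.14, adjusted p = 0.0422). Its probe set lay at the 8.5th percentile of mean level. The call was lost with arrays centred on their medians or quantile-normalized, and another probe set differed by 0.31 (adjusted p = 0.684).

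Hypoxia genes held members with higher values in number 3, although none passed the test of the difference. Of 18 measured, 9 rose in the mean of all pairs, 6 in numbers 1 and 2 and 4 in number 3. Over all genes these shares were 3.32%, 2.88% and 0.161%. In the difference 0 passed with limma (5 with an unadjusted p under 0.05), 5 had both pairs numbered 3 above all others (7.07% of all genes), and 8 had a difference below 0. That unadjusted p was reached by 1014 of all 12393 genes. The median of the list was 0.42 and 0.24 in the wild-type and knockout pairs numbered 3 and 0.06 to 0.19 in the others. Bnip3, a mitophagy receptor of the outer mitochondrial membrane, went from 9.79 to 10.96 in the wild-type and from 9.87 to 11.03 in the knockout cells numbered 3. In numbers 1 and 2 it went from between 9.14 and 9.38 to between 9.60 and 9.99. The rise was 1.17 and 1.16 in number 3 and 0.44 to 0.61 in the others, without overlap (difference 0.67, interval 0.39 to 0.94, adjusted p = 0.0672). Egln3, a prolyl hydroxylase that marks HIF for destruction, rose by 0.70 and 0.73 in number 3 and differed by 0.04 to 0.15 in the others (difference 0.63, interval 0.36 to 0.90, adjusted p = 0.0856). A dimmer probe set of Egln3 gave 0.14 and 0.49 in number 3 and -0.11 to 0.42 in the others. These overlapped (difference 0.17, limma adjusted p = 0.893). Kdm3a, a histone demethylase, rose on both sides (0.48 and 0.75), as did Bhlhe40, a repressor of clock genes, which was alike (0.89 and 0.85; difference -0.04, interval -0.37 to 0.29).

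Ccng2 and Ppp1r3c ranked beside Bnip3 and Egln3 without passing. Ccng2, which encodes an atypical cyclin, was lower with rotenone in the 4 pairs numbered 1 and 2 (mean -0.27) and higher in number 3 (0.45; difference 0.72, adjusted p = 0.0606). A dimmer probe set of Ccng2 was called (0.95, adjusted p = 0.00729) and named after its value was seen. Ppp1r3c, a glycogen-targeting phosphatase subunit, gave -0.35 and 0.33 (difference 0.69, adjusted p = 0.0672). Its dimmer probe set gave 0.19 and 0.25 in number 3 and -0.36 to 0.20 in the others (difference 0.24, limma adjusted p = 0.788). Of 17 glycolytic genes, 5 rose in the mean of all pairs (3.32% of all genes). With limma 0 differed, and 2 reached an unadjusted p under 0.05, as did 1014 of all 12393 genes. Slc2a1, the glucose transporter GLUT1, rose by 0.49 in numbers 1 and 2 and by 0.62 in number 3 (difference 0.13, interval -0.15 to 0.40), and hexokinase 2 (Hk2) was also alike within 0.5.

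**Figure D4:**
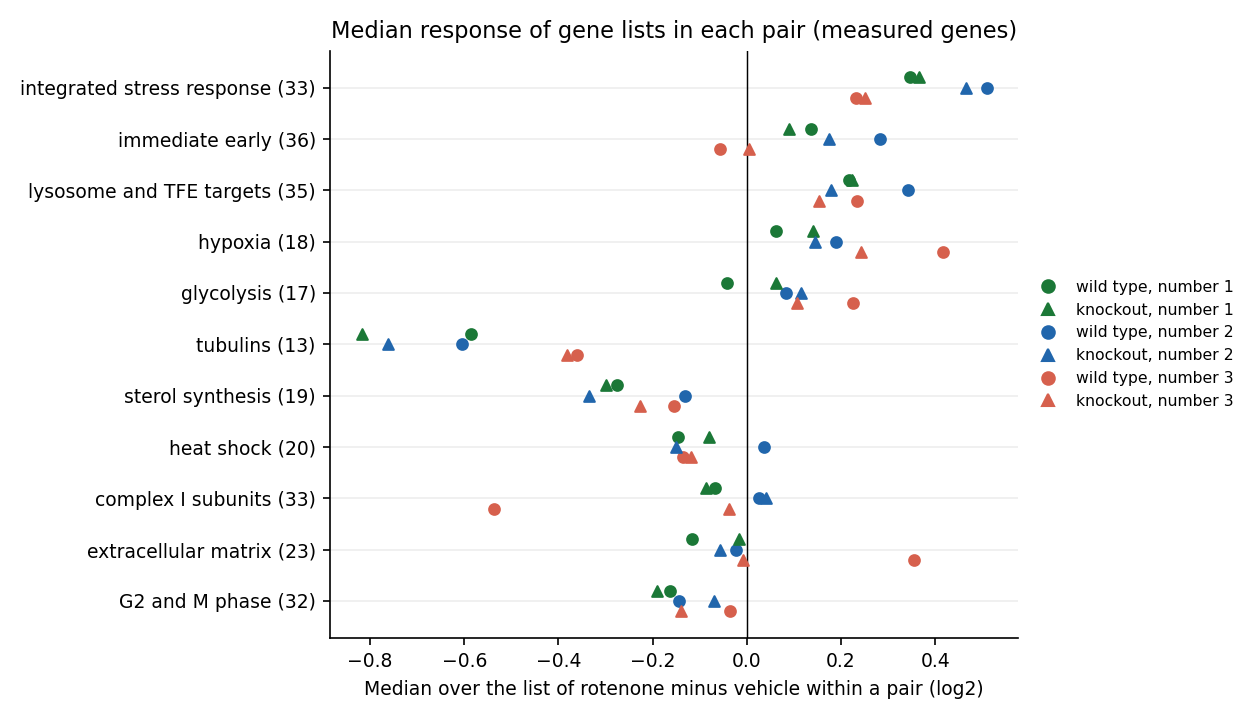
Median rotenone minus vehicle difference (log2) over the measured genes of 11 lists in each of the 6 pairs. Circles are wild type, triangles knockout, colours the replicate number, and the number of measured genes is in brackets. Both pairs numbered 3 lie below the others for the integrated stress response and immediate early genes, and above them for tubulins and hypoxia. They lie apart from each other for complex I subunits and extracellular matrix.

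Most tubulin transcripts fell with rotenone. Of 13 measured, 9 fell in the mean of all pairs, 9 in numbers 1 and 2 and 6 in number 3. Over all genes these shares were 2.74%, 1.97% and 0.202%. With limma 0 passed the test of the difference, and 6 reached an unadjusted p under 0.05, as did 1014 of all 12393 genes. The median response was -0.70, -0.68 and -0.30 in numbers 1, 2 and 3. In 5 members both pairs numbered 3 lay above all others (7.07% of all genes). Tuba1a, an alpha-tubulin, went from between 12.96 and 13.05 to between 11.79 and 12.21 in numbers 1 and 2, and from 13.19 to 12.89 and from 13.11 to 12.81 in number 3. It fell by 0.92 in the former and was 0.30 lower in the latter (difference 0.62, interval 0.32 to 0.93, adjusted p = 0.199). Tubb2a and Tubb4b, which encode beta-tubulins, differed by 0.50 and 0.53 (adjusted p = 0.349 and 0.354). Their falls passed on both sides by these probe sets. A dimmer probe set of Tubb2a went the other way, with -0.35 in numbers 1 and 2 and -0.54 in number 3 (difference -0.19, limma adjusted p = 0.847). Tubb4b has 6 probe sets, and only the brightest was called in the mean response. The dimmer ones gave means from -0.24 to 0.11 (limma adjusted p from 0.0786 to 0.607). The probe sets of Tuba1a and Tubb2a are of kinds that can match near-identical genes, so their signal may be shared with other tubulins. Tubb2b was alike (-0.99 and -1.01; difference -0.02, interval -0.38 to 0.34). Tubb3, a beta-tubulin best known from neurons, went the other way, from 8.78 to 6.86 and from 8.62 to 7.26 in number 3. It fell by 1.64 there and by 1.23 in the others (difference -0.40, interval -0.77 to -0.04, adjusted p = 0.600).

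Txnip, an arrestin-domain inhibitor of glucose uptake, had the deepest fall of all genes on both sides. Its wild-type levels were 10.66, 10.36 and 10.07 with vehicle and 7.93, 7.54 and 8.62 with rotenone, and its knockout levels 10.63, 10.61 and 9.87 with vehicle and 8.06, 7.97 and 7.58 with rotenone. It fell 6.43-fold in numbers 1 and 2 and 3.66-fold in number 3 (difference 0.81, interval 0.44 to 1.19, adjusted p = 0.155). The gap was 1.31 in the wild type and 0.31 in the knockout. Its second, dimmer probe set was called and was named after its value was seen. That probe set gave -2.30, -1.97, -2.20 and -2.28 in numbers 1 and 2 and -1.36 and -1.45 in number 3 (difference 0.78, SE 0.14, adjusted p = 0.0343). Arrdc4, its arrestin-domain relative, was alike by its brightest probe set, at -0.58 and -0.54 (difference 0.05, interval -0.24 to 0.34). A dimmer probe set of Arrdc4 gave -1.03 in numbers 1 and 2 and -0.61 in number 3 (difference 0.42, SE 0.14, limma adjusted p = 0.454). Both its pairs numbered 3 (-0.44 and -0.78) lay above the others (-1.16 to -0.87), so the likeness of Arrdc4 depended on the probe set.

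Likeness could be stated for 410 of the 751 genes that changed in the mean of all 6 pairs (54.6%, or 3.31% of all genes), 223 that rose (1.8%) and 187 that fell (1.51%). The 751 (6.06%) were 411 that rose (3.32%) and 340 that fell (2.74%). Over probe sets 731 of 1341 (5.93% of all tested) met the bound of 0.5, 372 higher and 359 lower. With arrays centred on their medians this split was 311 higher and 458 lower. With a bound of 0.25 the count was 0, and bounds between these were not run. It was 356 to 483 when 1 pair was left out, and 157 when arrays were not paired. The intervals were not adjusted for the number of genes.

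Of the 10 largest alike rises, 2 were those of genes that act at the lysosome. Flcn, which encodes folliculin, went from between 8.67 and 8.80 to between 9.46 and 9.72 in numbers 1 and 2, and from 8.63 to 9.53 and from 8.62 to 9.20 in number 3. It rose 1.76-fold overall (0.82, SE 0.07, adjusted p = 5.13e-07; difference -0.12, interval -0.42 to 0.19). Atp6v1b2, a subunit of the lysosomal proton pump, rose by 0.72, 1.11, 0.74 and 0.74 in numbers 1 and 2 and by 0.85 and 0.51 in number 3 (0.78, SE 0.07, adjusted p = 1.67e-06; difference -0.15, interval -0.47 to 0.17). Dimmer probe sets of Atp6v1b2 gave mean responses of 0.78 and -0.04 (limma adjusted p = 3.11e-06 and 0.835), with differences of -0.32 and -0.15. Of the 35 genes of lysosomes and TFE targets measured, 14 rose (3.32% of all genes). Of these 14, 8 were alike within 0.5, near the 54.6% over all genes with a called mean response. With limma 0 of the 35 differed, and 6 reached an unadjusted p under 0.05, as did 1014 of all 12393 genes. The lysosomal sialidase Neu1 was not among these 8 (difference -0.51, adjusted p = 0.360).

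Other alike rises were those of Avl9 (0.65), Thbd, which encodes thrombomodulin (0.63), and Hs1bp3 (0.61). Among alike falls, Arf2, a small GTPase of vesicle traffic, fell by 0.75, Hspa2, a heat shock protein, by 0.64, Tuba4a, an alpha-tubulin, by 0.63, Elovl6, a fatty acid elongase, by 0.59, Ackr3, an atypical chemokine receptor, by 0.59, and Tmem119 by 0.58. A dimmer probe set of Tuba4a differed by 0.29 (limma adjusted p = 0.657), with both pairs numbered 3 (-0.38 and -0.23) above the others. Another gave a mean response of -0.10 (limma adjusted p = 0.463). Alike in the interval did not always mean alike between genotypes. The knockout pair numbered 3 gave the deepest fall of Ackr3 (-0.94) and the wild-type pair numbered 3 the shallowest (-0.15).

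**Figure D5:**
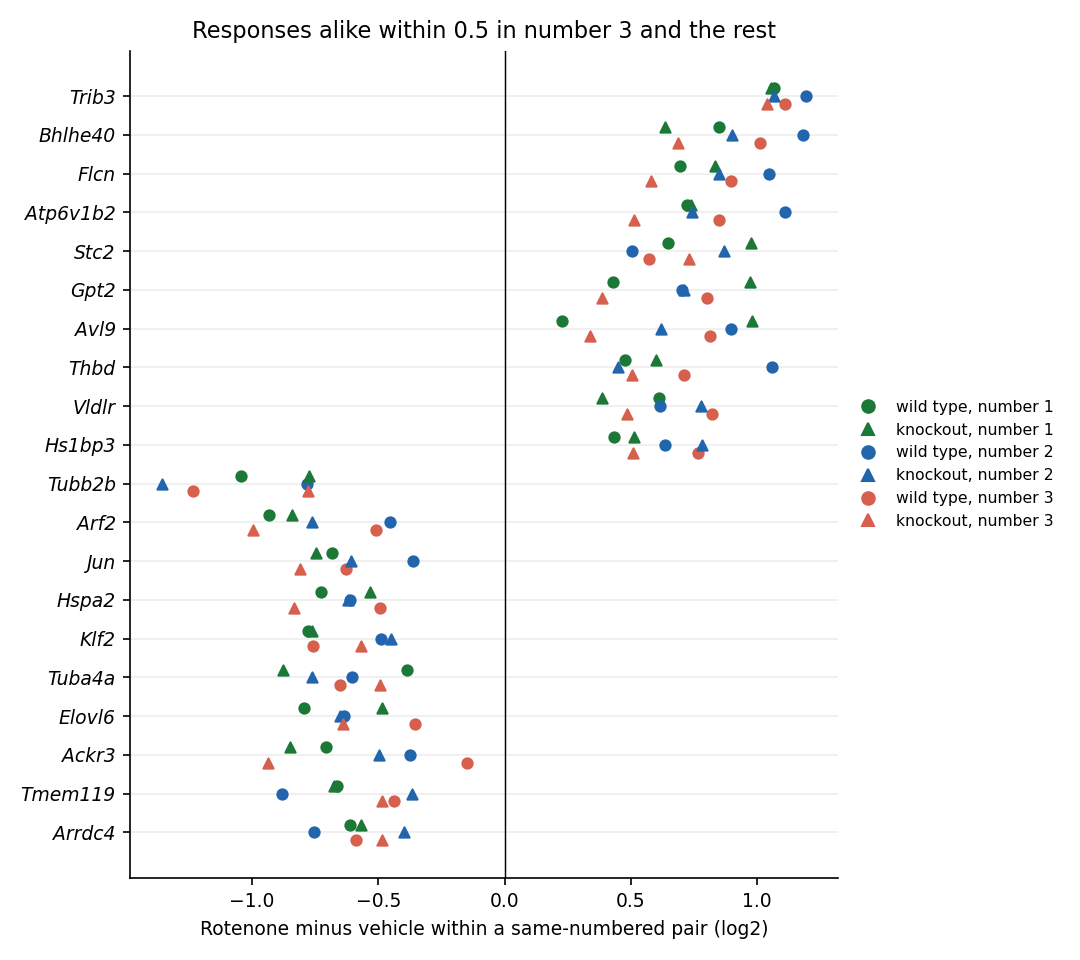
Rotenone minus vehicle difference (log2) in each of the 6 same-numbered pairs for the 10 largest rises and 10 largest falls alike within 0.5. Circles are wild type, triangles knockout, and colours the replicate number. The 6 values of Trib3 lie between 1.04 and 1.19, and those of Ackr3 spread from -0.94 to -0.15.

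Genes of sterol synthesis fell without a called difference. Of 19 measured, 8 fell in the mean of all pairs, 7 in numbers 1 and 2 and 0 in number 3 with limma (6 with an unadjusted p under 0.05 there), and 4 were alike. Over all genes 2.74% fell in that mean and 1.97% in numbers 1 and 2. In number 3, 1558 of all 12393 genes reached that unadjusted p. The median response was -0.28, -0.21 and -0.16 in numbers 1, 2 and 3. Idi1, isopentenyl diphosphate isomerase, and Stard4, a cholesterol carrier, each differed by 0.47 (adjusted p = 0.477 and 0.369), and Hmgcs1, HMG-CoA synthase, by 0.46 (adjusted p = 0.557). Of 20 heat shock genes, 6 fell, 1 rose (2.74% and 3.32% of all genes) and 0 differed with limma. In the difference 1 reached an unadjusted p under 0.05, as did 1014 of all 12393 genes. The median difference of that list was 0.00 and its sign turned with arrays centred on their medians.

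The wild-type pair numbered 3 stood apart from the other 5 in the medians of complex I subunits and of extracellular matrix. The median over 33 complex I subunits was -0.54 there, -0.04 in the knockout pair numbered 3 and between -0.09 and 0.04 in the other 4 pairs, and 0 of them passed with limma in the mean of all pairs or in the difference (9 and 11 with an unadjusted p under 0.05). The median over 23 genes of extracellular matrix was 0.36 there and between -0.12 and -0.01 elsewhere, again with 0 called (0 and 4 with an unadjusted p under 0.05). Over all 12393 genes, 2477 reached that unadjusted p in the mean of all pairs and 1014 in the difference. The same pair stood apart in the medians of fibroblast markers (0.33 against -0.13 to -0.08 over 15 genes) and endothelial markers (0.31 against -0.02 to 0.03 over 10 genes, 3 of them above the 40th percentile). The part of cell types in these values was not tested. The medians are descriptions, and whether they differ from the other pairs was not tested.

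Vehicle levels of number 3 that lay apart went with like and with unlike responses. Mmp3, a matrix protease, stood at 9.89 and 11.09 in the vehicle cells numbered 3 and at 6.04 to 6.39 in the others, and its response differed by 0.09 (interval -0.28 to 0.46). Its mean response over all pairs was not called (0.03, limma adjusted p = 0.864). The pairs numbered 3 went opposite ways, 0.50 in the wild type and -0.31 in the knockout. Cxcl1, a chemokine, stood at 10.49 and 10.36 against 5.94 to 6.36, and its response differed by -0.31 (interval -0.60 to -0.02, adjusted p = 0.631). Ch25h and Nfil3 had smaller responses from a vehicle level within or near the range of the others, and Gadd45a and Ddit3 from a lower one. Trib3, by its brightest probe set, had a like response from a lower one. In all, 240 probe sets stood more than 1 higher and 65 more than 1 lower in the vehicle cells numbered 3.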

How the data were processed

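Biotin-labelled cRNA of 12 samples was hybridised to Affymetrix arrays. The log2 values deposited by the authors came from RMA, per the submitters' processing notes (version not given in the sources used here), which compresses differences near background and hides a shift common to most genes. Detection calls and scanner intensities were not used here, so signal over background is unknown.

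Of 22690 probe sets, 64 controls were left out; 20380 of the others carried 1 gene symbol, 691 several and 1555 none, and 20359 of the 20380 matched RefSeq (GRCm38.p6). Same-numbered differences were fitted with limma 3.58.1 in R 4.3.3 (lmFit, eBayes, two-sided, 4 residual and 14.0 prior degrees of freedom), with 1 mean for number 3 and 1 for numbers 1 and 2. Contrasts between single numbers came from a second fit with 1 mean for each number. Benjamini-Hochberg adjustment ran over all 22626 probe sets, with a threshold of 0.05. All 18 same-numbered pairs of arrays deviated together from their group means (r 0.289 to 0.829), which is the basis of the pairing. Because number 3 stood apart in every group, these values alone do not show that arrays numbered 1 and 2 are matched rightly. That matching was not tested.

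The genes named are the called differences (up to 15 a direction; with under 5, the 5 of smallest p), the 10 largest alike rises and falls, a panel, and called list members. The members and the 32 lists were chosen with earlier results of these data known. The fit was tested on simulated data. Alternatives covered the pairing, a genotype term, the prior, centring, quantile normalization, dim probe sets, the bound and each pair left out.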

Additional observations from a re-analysis of the deposited data

Results flagged for a closer look

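The difference of the rotenone response between the pairs numbered 3 and the rest, tested with limma, passed for 12 genes. On the log2 scale it was -1.71 for Ch25h, -1.48 for Gadd45a, -1.23 for Adipoq, -1.06 for Nfil3, -0.99 for Ppp1r15a, -0.87 for Ifrd1, -0.86 for Ddit3, -0.84 for Fgf21, -0.78 for Neat1, -0.77 for Spry2, -0.75 for Cenpk and 0.76 for Fgl2. Among the 4 pairs numbered 1 and 2, the wild-type pair numbered 2 stood apart for Ch25h, at 2.68, with the other 3 between 1.64 and 1.76. Chance sets a sample apart in this way in about 1 of 20 groups.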

How the results depend on the processing

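The counts depended on the pairing and on the pairs numbered 3. With no replicate block (arrays not paired by number), the difference between number 3 and the rest called 0 probe sets, and the counts were 458 for the mean response, 371 for numbers 1 and 2, 11 for number 3 and 157 for likeness, in place of 17, 1341, 1057, 81 and 731. With genotype as a term they were 26 for the difference, 143 for number 3 and 8 for number 2 against number 1. Against number 1 alone the difference called 3. A bound of 0.25 gave 0 alike probe sets and a bound of 1 gave 1311. Leaving out 1 pair gave 6 to 352 for the difference, 796 to 1802 for the mean response, 576 to 1327 for numbers 1 and 2, 34 to 905 for number 3, 0 to 9 for number 2 against number 1 and 356 to 483 for likeness. These fits have fewer pairs; otherwise the cause was not tested. Other settings (priors, centring, quantile normalization, dim probe sets left out) kept every count within 1.5 times.

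All 12 calls of the difference were lost without the pairing, where the adjusted p was 0.142 for Ch25h and 0.125 for Gadd45a. Of 62 named genes called in the mean response, 58 stayed called whichever pair was left out and 61 under all the other alternatives. No named gene reversed. With 2 pairs numbered 3 and no detection calls, small differences and dim genes such as Adipoq and Fgl2 are the least certain.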
